A study of Homo sapiens with 27 samples.

Results

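The 3-way interaction of the ligands EGF, OSM and TGFB was measured in MCF10A cells, an established line of non-tumorigenic human breast epithelium. It asks which genes reached a level with all 3 ligands that the pairs of ligands do not predict. Of the 27 RNA-seq libraries of the series, 24 enter it, 3 in each of 8 groups: PBS (the vehicle), EGF, OSM, TGFB, EGF+OSM, EGF+TGFB, OSM+TGFB and EGF+OSM+TGFB. The remaining 3, taken before any ligand was added, entered only the estimate of the spread between libraries. All cells were grown with 20 ng/ml EGF, left 18 h without growth factors, and then given PBS or the ligands at 10 ng/ml each for 24 h in growth factor-free medium. The control cells therefore share a past of EGF culture and starvation, and each group comes from the same single cell line. The labels number the libraries 1 to 3 in a group and do not say whether they are separate cultures, so the p-values measure the spread between these libraries, which may be technical.

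EGF binds the receptor tyrosine kinase EGFR and signals largely through the RAS-ERK cascade, which drives growth and proliferation of MCF10A cells. OSM, oncostatin M, is a cytokine of the interleukin-6 family that acts through the receptor OSMR and the shared subunit gp130 (gene IL6ST), with STAT3 as its main transcription factor. TGFB binds the receptors TGFBR1 and TGFBR2, whose kinases activate SMAD transcription factors. It restrains the division of epithelial cells and induces genes of the extracellular matrix.

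For each gene, the 3-way value was the log2 level with all 3 ligands, minus the 3 pairs, plus the 3 single ligands, minus PBS. It equals the log2 ratio of the observed level to a predicted level, namely the product of the 3 pair levels and the PBS level divided by the product of the 3 single-ligand levels. A value of 0 means that the effects of single ligands and pairs, multiplied together, give the level with all 3 ligands. The same number is the change in the interaction of any 2 ligands when the other ligand is added. Levels are given as CPM, counts relative to the scaled size of each library, as mean ± SD over n = 3 libraries unless each library is listed. They compare groups of libraries for 1 gene and are not comparable between genes of different length.

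The libraries held totals of 30.1 to 52.9 M counts, and 16611 of 40487 rows of the gene table were abundant enough to test. Pearson's r between replicates of the same group, across genes, was 0.986 to 0.995. All 11 markers of basal mammary epithelium on a list (such as KRT5, KRT14 and TP63) had a median of at least 5 CPM over the 24 libraries. Of 11 luminal markers, 6 reached that median (KRT8, KRT18, XBP1, AREG, GATA3 and FOXA1), and PGR, ELF5 and KIT did not exceed 0.109 CPM in any library. Of 12 leukocyte markers, CD14, CD68 and CSF1R reached it, and 8 stayed under 1 CPM in every library, among them PTPRC (at most 0.120 CPM). Of 10 endothelial markers none reached it, although KDR read up to 31.2 CPM, and CDH5 read at most 0.144 CPM. Of 10 fibroblast markers, DCN, COL1A1, FAP and PDPN reached it, and the other 6, among them PDGFRA (at most 0.256 CPM), stayed under 1 CPM. The part of these markers in the results was not tested. OSM replicate 3 and EGF+TGFB replicate 2 stood apart in an earlier principal component analysis of these data, and the counts below are given without them where they differ. By Pearson's r across genes, EGF+TGFB replicate 2 was close to replicate 1 (0.994), and replicate 3 was less close to replicates 1 and 2 (0.989 and 0.990).

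Promoter sequences are shown for 2 of the named genes, AMIGO2 and MT2A, which both lay above the predicted level. Each window runs from 250 bases before to 50 bases after the gene's start in RefSeq (GRCh38.p14), written 5′ to 3′ on the strand of the gene. Capitals mark matches, on either strand, to the AP-1 motif TGANTCA, the STAT motif TTCNNNGAA or the SMAD core CAGAC. AP-1 factors act downstream of ERK, so the 3 motifs stand for the 3 ligands' best-known pathways.
AMIGO2: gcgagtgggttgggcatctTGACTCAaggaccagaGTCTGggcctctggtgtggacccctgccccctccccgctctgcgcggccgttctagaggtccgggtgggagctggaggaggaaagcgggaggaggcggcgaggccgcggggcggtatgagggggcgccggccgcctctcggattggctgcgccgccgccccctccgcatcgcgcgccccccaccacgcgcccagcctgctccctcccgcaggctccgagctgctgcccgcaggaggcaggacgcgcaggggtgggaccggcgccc
MT2A: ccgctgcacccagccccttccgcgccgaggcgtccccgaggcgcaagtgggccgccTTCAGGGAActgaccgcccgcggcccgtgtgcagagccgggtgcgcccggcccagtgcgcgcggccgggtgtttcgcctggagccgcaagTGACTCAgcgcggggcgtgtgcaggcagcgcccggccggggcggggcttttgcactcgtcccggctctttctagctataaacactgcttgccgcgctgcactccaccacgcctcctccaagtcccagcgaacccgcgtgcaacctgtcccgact
The AMIGO2 window (chr12:47079902-47080201, minus strand) holds an AP-1 match and a SMAD core, here read as GTCTG. The MT2A window (chr16:56608334-56608633, plus strand) holds an AP-1 and a STAT match. The windows of KANK4, LBH, PMEPA1 and HBEGF hold none of the 3 motifs, and TGM2 and SLCO2A1 are not in the promoter table. The SOCS3 window holds a SMAD core and no AP-1 or STAT match. The 2 windows shown are thus the ones with the most matches among those described here, and are not typical of them.

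These short motifs are common, and their matches describe letters, not bound sites. The AP-1 motif occurs in 7.76% of all 27305 promoters of the table and in 5.15% of the 11408 promoters of tested genes. It occurs in 8.17% of the 257 promoters found for genes above the predicted level and in 4.88% of the 164 found for genes below it. The STAT motif occurs in 7.88% of all promoters, in 6.3% for tested genes, and in 7% and 6.71% for the genes above and below. The SMAD core occurs in 45% of all promoters, in 43.1% for tested genes, and in 47.5% and 42.1% for the genes above and below.

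With all 3 ligands present, most genes lay close to the level that the pairs gave. Of 10985 rows with a mean of at least 5 CPM, 96.8% were within 2-fold of it. In edgeR's quasi-likelihood test, with the Benjamini-Hochberg adjustment made across the whole table, 560 rows (3.37% of those tested) had a 3-way value that differed from 0 at an adjusted p under 0.05. Of these, 351 (2.11%) were higher than predicted and 209 (1.26%) were lower. Past a 2-fold difference, 166 were higher and 41 lower (1.25% in all). The median 3-way value over all rows was 0.04, and the median standard error was 0.21.

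**Figure D1:**
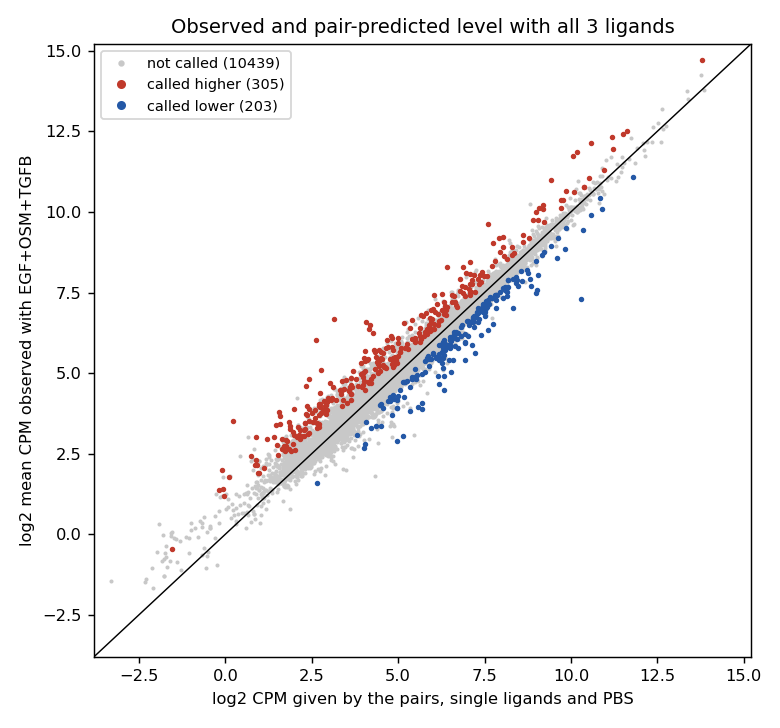
Observed against predicted level with EGF+OSM+TGFB for 10947 rows with a mean of at least 5 CPM and 10 counts per library in every group (both axes log2 CPM). Red points are the 305 rows called higher and blue points the 203 called lower. Grey points are the rows not called, and the line marks equality, which most rows follow.

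Without OSM replicate 3 and EGF+TGFB replicate 2, 605 rows were called, 413 higher and 192 lower. With single libraries left out, the count of lower rows was 111 without EGF+TGFB replicate 1 and also 111 without EGF+TGFB replicate 2. It was 117 without OSM replicate 1, 131 without EGF+OSM+TGFB replicate 2 and 139 without TGFB replicate 1. The direction also depends on the scale on which additivity is judged. When the same contrast was taken on mean CPM without logs, where effects add rather than multiply, 274 of the 351 higher rows and 201 of the 209 lower rows kept their sign. Among the 12 genes with the most positive 3-way values (named below), only 3 did. The rest therefore lay above a multiplicative prediction but not above an additive one.

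Interactions of 2 ligands were called in a larger share of rows than the 3-way value. The contrasts are not equally precise, but their median standard errors were taken over different rows. For EGF and OSM without TGFB the median was 0.106 over 10947 rows with at least 5 CPM and 10 counts per library in every group. For the 3-way value it was 0.21 over all 16611 rows tested, including those with few counts. The gap between these medians therefore does not measure the difference in precision. The interaction of EGF and OSM was called in 36.5% of rows without TGFB and in 33% with it. For EGF and TGFB the shares were 27.7% without OSM and 15.2% with it. For OSM and TGFB they were 21.5% without EGF and 8.74% with it. Each pair's interaction with and without the other ligand comes from separate libraries. Across the 10947 rows, Pearson's r between them was 0.84 for the pair without TGFB, 0.55 for the pair without OSM and 0.53 for the pair without EGF, as a description over genes that are not independent replicates. The slopes through 0 were 0.71, 0.43 and 0.41. The SD of the interactions over these rows was 0.68 without and 0.57 with the other ligand for EGF and OSM, 0.42 and 0.33 for EGF and TGFB, and 0.41 and 0.32 for OSM and TGFB.

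Among the 351 higher rows, EGF and OSM without TGFB mostly gave less than the product of their separate effects. That interaction was called negative in 281 of them, and its median of -1.17 moved to -0.20 when TGFB was present. Its background is 21.9% of rows called negative. Corresponding medians were -0.69 without and 0.19 with OSM for EGF and TGFB, and -0.71 without and 0.17 with EGF for OSM and TGFB. These pairs were called negative, without the other ligand, in 279 and 257 of the same rows. Of all rows, 27.7% and 21.5% were called in either direction. The negative interaction was thus shared by all 3 pairs. In the 209 lower rows the EGF and OSM interaction had a median of 0.28 without and -0.32 with TGFB. The medians were 0.56 without and -0.02 with OSM for EGF and TGFB, and 0.49 without and -0.10 with EGF for OSM and TGFB. Without the other ligand, 113, 185 and 170 of these rows were called positive for the 3 pairs in that order. The shares of all rows called in either direction were 36.5%, 27.7% and 21.5%. For each pair, the 3-way value is by definition the interaction with the other ligand minus that without it. The medians and counts therefore describe how it arose and are no separate support.

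**Figure D2:**
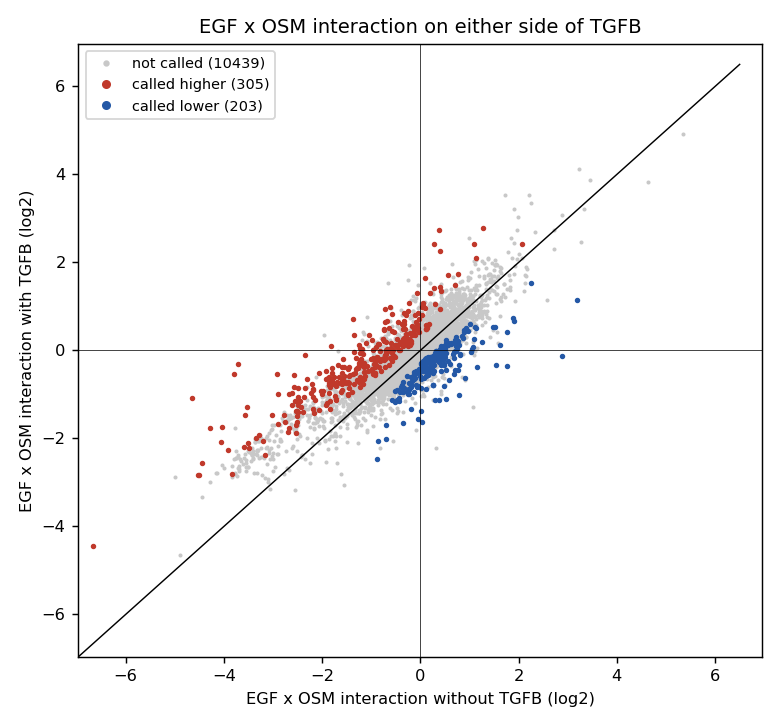
Interaction of EGF and OSM with TGFB present (y axis, log2) against the same without TGFB (x axis, log2) for the same 10947 rows. The distance from the line of equality is the 3-way value. Many of the 305 rows called higher (red) lie at negative values on the x axis and nearer to 0 on the y axis.

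SMAD targets and feedback genes were the list with the most calls above prediction. Of 25 tested members, 12 were higher than predicted, beside 2.11% of all rows, and none lower, with a median 3-way value of 0.71 against 0.04 over all rows. Called members included LBH, AMIGO2, PMEPA1, ID2, TGM2, LTBP2, CCN2, BHLHE40, ID3, TGFBR1 and SKIL. Without the 2 libraries named above the count was again 12, and it was 9 to 13 with single libraries left out. The members' median interaction of EGF and OSM was -1.0 without TGFB and -0.46 with it.

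PMEPA1 (ENSG00000124225, chr20:57648392-57711536, minus strand, GRCh38) encodes a membrane protein that restrains SMAD signalling and is itself a SMAD target. Its 3 libraries read 48.4, 44.2 and 46.6 CPM with PBS, 204, 199 and 177 with EGF, 223, 198 and 214 with OSM, and 505, 476 and 450.2 with TGFB. With pairs they read 179, 146 and 121 for EGF+OSM, 783, 791 and 670.2 for EGF+TGFB, and 770.3, 727 and 712 for OSM+TGFB. With all 3 ligands they read 802, 818 and 739 CPM. The libraries with all 3 ligands overlap both pairs that contain TGFB and lie far above EGF+OSM. The predicted level was 195 CPM, and the 3-way value was 2.01 ± 0.20 (SE; edgeR adjusted p = 6.2e-06). EGF and OSM libraries were each far above PBS, while EGF+OSM had a lower mean than either. This pair effect entered the prediction and was mostly absent with TGFB: the interaction was -2.57 without and -0.55 with TGFB.

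LBH, a transcription regulator of mammary stem cells (ENSG00000213626, chr2:30231534-30323730, plus strand), showed the same order more sharply. It stood at 4.27, 4.71 and 4.45 CPM with PBS, 7.33, 7.27 and 5.35 with EGF, 25.8, 24.2 and 22.9 with OSM, and 97.4, 92.3 and 77.2 with TGFB. EGF+OSM gave 4.04, 2.54 and 1.72 CPM, EGF+TGFB 62.1, 62.6 and 48.8, and OSM+TGFB 134, 123 and 116. All 3 ligands gave 66.6, 73.7 and 57.2 CPM against a predicted 6.20. EGF+OSM was the lowest group, below PBS in every library, whereas the libraries with all 3 ligands overlapped EGF+TGFB. The 3-way value was 3.42 ± 0.34 (edgeR adjusted p = 6.2e-06).

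CCN2, a matricellular growth regulator, reached 101 ± 3.41 CPM with all 3 ligands against a predicted 42.4 and lay under EGF+TGFB (146 ± 15.4). LTBP2, a microfibril protein, reached 524 ± 31.2 CPM against 213. SMAD7, the inhibitory SMAD that TGFB induces as feedback (ENSG00000101665), was predicted almost exactly: 48.1 ± 3.03 CPM against 48.9. Its 3-way value was -0.03 ± 0.15 (edgeR adjusted p = 0.97).

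**Figure D3:**
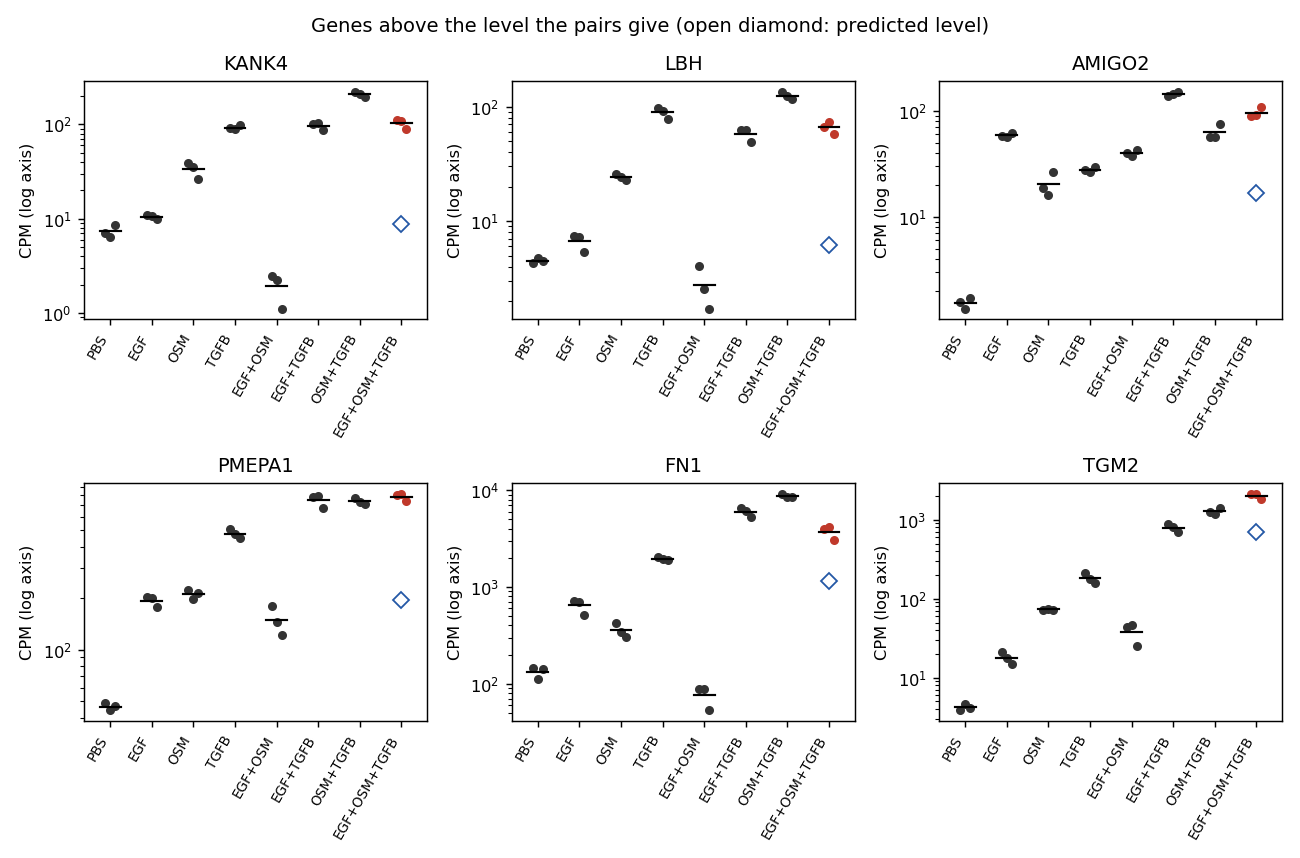
CPM in each library (points, log axis) with the group mean (bar) for KANK4, LBH, AMIGO2, PMEPA1, FN1 and TGM2. Red points are EGF+OSM+TGFB and the open diamond is the predicted level, which lies below the red points in all 6 genes. In KANK4, LBH and FN1 the EGF+OSM libraries are the lowest of the 8 groups.

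The 12 most positive values among abundant, called protein-coding genes belonged to KANK4, LBH, P4HA3, AMIGO2, AFAP1L2, MAOA, ZBED2, ADAMTS15, SLITRK6, COL6A3, GDPD3 and PCED1B. In 10 of them the interaction of EGF and OSM without TGFB was negative and became smaller with TGFB. In 10 the group with the highest mean contained TGFB.

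KANK4, of a family of ankyrin-repeat proteins that act at the actin cytoskeleton (ENSG00000132854, chr1:62236165-62319434, minus strand), had the most positive value, 3.56 ± 0.37 (edgeR adjusted p = 6.3e-06). Its libraries read 7.12, 6.37 and 8.61 CPM with PBS, 11, 10.7 and 9.92 with EGF, 39.4, 35.5 and 26.1 with OSM, and 90.8, 89.1 and 98.0 with TGFB. EGF+OSM gave 2.47, 2.21 and 1.11 CPM, EGF+TGFB 100.0, 104 and 88.4, and OSM+TGFB 222, 209 and 195. With all 3 ligands it read 112, 108 and 89.4 CPM, 11.7 times the predicted 8.78. EGF+OSM took KANK4 below PBS in every library, and the same pair did not do so in the presence of TGFB, where the level overlapped EGF+TGFB.

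AMIGO2, a leucine-rich repeat adhesion protein (ENSG00000139211, chr12:47075707-47079959, minus strand), was higher with every ligand alone than with PBS, with no overlap. It read 1.55, 1.36 and 1.71 CPM with PBS, 57.8, 56.6 and 61.2 with EGF, 18.8, 15.9 and 26.6 with OSM, and 27.4, 26.2 and 29.3 with TGFB. Pairs gave 39.7, 37.3 and 42.3 CPM for EGF+OSM, 138, 144 and 151 for EGF+TGFB, and 56.4, 57.0 and 74.2 for OSM+TGFB. All 3 ligands gave 89.4, 90.2 and 108 CPM, between the pairs and above a predicted 16.7. All 3 pair interactions were negative without the other ligand (-4.28, -2.87 and -2.55). With it they were -1.76, -0.35 and -0.03, and the 3-way value was 2.52 ± 0.33 (edgeR adjusted p = 0.00012). AMIGO2 overlaps PCED1B, on the other strand (chr12:47079603-47236662), by 357 bases at their starts. How reads there were divided between the 2 genes is not given in the sources used here, and PCED1B was also among the 12.

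MAOA (monoamine oxidase A, chrX:43654907-43746817, plus strand) shows another way to a positive value. It was lower with each ligand than with PBS: 504 ± 22.4 CPM with PBS, 28.0 ± 4.26 with EGF, 231 ± 66.9 with OSM and 255 ± 29.3 with TGFB. It stood at 16.6 ± 2.71 CPM with EGF+OSM, 12.3 ± 2.57 with EGF+TGFB and 109 ± 19.5 with OSM+TGFB. With all 3 ligands it stood at 34.5 ± 2.30 CPM, above both pairs that contain EGF and 5.04 times the predicted 6.85. No pair interaction exceeded 0.38 in size without the other ligand, and all 3 were above 2 with it. GDPD3, a phosphodiesterase of glycerophospholipids, was also lower with each ligand than with PBS. With all 3 ligands it stood at 4.0 ± 0.366 CPM against a predicted 0.927, but under EGF+TGFB (6.94 ± 2.79). Its pair interactions were -0.17 to 0.70 without the other ligand and 1.96 to 2.83 with it.

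Genes of the extracellular matrix and its enzymes are counted here by list, beside 2.11% of all rows called higher and 1.26% called lower. Of 20 matricellular and related matrix proteins, 4 were higher (VCAN, FN1, TNC and CCN2) and FBLN5 was lower. Of 26 collagens and crosslinking enzymes, 4 were higher (P4HA3, COL7A1, COL1A1 and COL4A2). Of 22 laminins and integrins, 4 were higher, among them ITGB6, LAMB3 and ITGB5. The collagen and laminin lists had no member called lower, but their medians, 0.10 and 0.17, were near the 0.04 of all rows. Of 21 matrix metalloproteinases and inhibitors, ADAM19 was higher and MMP14 lower.

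FN1, fibronectin (ENSG00000115414, chr2:215360440-215436073, minus strand), was lowest with EGF+OSM at 87.2, 88.5 and 52.9 CPM, below PBS at 144, 111 and 141. EGF gave 722, 707 and 514 CPM, OSM 420.1, 344 and 304, and TGFB 2045, 1956 and 1891. EGF+TGFB gave 6609.6, 6085 and 5288 CPM and OSM+TGFB 9276, 8548 and 8449. With all 3 ligands FN1 read 3963, 4223 and 3039 CPM, under both of these pairs and above every single ligand. Its 3-way value was 1.68 ± 0.35 (edgeR adjusted p = 0.0084), from a predicted 1166 CPM. On the scale without logs the contrast was -8250.3 CPM, the opposite sign.

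TNC (tenascin-C) reached 3405 ± 47.2 CPM with all 3 ligands against a predicted 1068, and 3889 ± 264 with OSM+TGFB. VCAN, the proteoglycan versican, reached 316 ± 6.93 CPM against 84.7. P4HA3, a prolyl hydroxylase of collagen, reached 11.5 ± 1.33 CPM against 1.16, with a 3-way value of 3.27 ± 0.55. Its PBS level, which enters the prediction, was 0.262 ± 0.149 CPM, and its lowest group held 11.3 counts per library. From libraries of the same number, the value was 3.23, 2.53 and 4.54. COL7A1 and COL1A1 were lowest with EGF+OSM, at 26.5 ± 5.13 and 4.85 ± 0.903 CPM, and stood at 175 ± 14.4 and 40.7 ± 3.19 with all 3 ligands. COL1A1 and FAP are also on the fibroblast list, where 2 of 7 tested members were higher, beside 2.11% of all rows. Of its other members, DCN read 7.42 to 103 CPM and PDPN 50.8 to 608 CPM over the 24 libraries, while COL3A1, PDGFRA and THY1 did not exceed 0.256 CPM in any. Their part in the result was not tested.

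LAMB3, a laminin chain that anchors epithelium to its basement membrane, read 5897 ± 247 CPM with all 3 ligands and 5567 ± 334 with EGF+TGFB, against a predicted 3179. Its 3-way value was 0.89 ± 0.19 (edgeR adjusted p = 0.0083). ITGB6, the integrin subunit of epithelia that activates latent TGFB, read 1119 ± 109 CPM against 536, and its call was lost in 8 alternatives (adjusted p up to 0.096). Among the 11 basal epithelial markers, LAMB3, KRT17 and the cadherin CDH3 were called higher, beside 2.11% of all rows. CDH3 lost its call in 6 alternatives (adjusted p up to 0.088).

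Metallothioneins, small metal-binding proteins, were above prediction in all 4 of 4 tested members (MT1F, MT2A, MT1E and MT1X were called higher, beside 2.11% of all rows), with a median of 1.13. They sit side by side on chromosome 16 and are similar in sequence, so that reads may be shared between them. MT2A read 381, 225 and 369.9 CPM with PBS, 3284, 3042 and 3269 with EGF, 5301, 5177 and 6021 with OSM, and 654, 657 and 632 with TGFB. EGF+OSM gave 6081, 5707 and 5929 CPM, EGF+TGFB 2792, 2833 and 2989, and OSM+TGFB 4831, 4680.1 and 4909. All 3 ligands gave 4819.7, 5162 and 5341 CPM, overlapping OSM+TGFB and OSM. OSM alone, OSM with either ligand and all 3 ligands thus lay within a narrow range, well above PBS and TGFB. Its 3-way value was 1.13 ± 0.23 (edgeR adjusted p = 0.0072) from a predicted 2327 CPM. MT1E lost its call in 19 alternatives (adjusted p up to 0.091), and 3 of the 4 were called without the 2 libraries named above.

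Genes of DNA replication and mitosis had positive values throughout, and the number called depended on the method and the libraries. All 30 replication genes and all 30 mitosis genes had a 3-way value above 0, as did 9169 of all 16611 rows. Their medians were 0.97 and 1.05, against 0.04 over all rows. By edgeR, 6 replication genes (UHRF1, RFC3, PRIM1, MCM5, MCM7 and RFC4) and 2 mitosis genes (ANLN and KIF11) were called, all higher, beside 2.11% of all rows. DESeq2, which called more rows in all (913), called 11 and 10, all higher. These genes rise and fall together with the share of dividing cells, so the members are not independent, and in bulk RNA fewer cells in cycle and less RNA per cell cannot be told apart. Over the replication list the mean log2 CPM was 2.75 ± 0.0717 with PBS, 5.98 ± 0.0822 with EGF, 5.04 ± 0.257 with OSM and 2.74 ± 0.0836 with TGFB. It was 6.17 ± 0.0818 with EGF+OSM, 5.04 ± 0.245 with EGF+TGFB, 3.85 ± 0.200 with OSM+TGFB and 4.91 ± 0.190 with all 3 ligands.

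UHRF1, which maintains DNA methylation at replication forks, read 71.4 ± 9.24 CPM with all 3 ligands against a predicted 27.9. EGF gave 148 ± 7.03 CPM, EGF+OSM 173 ± 15.8 and EGF+TGFB 77.4 ± 14.7. The EGF+TGFB mean was thus below that of EGF, and the level with all 3 ligands was within the spread of EGF+TGFB. MKI67, the proliferation marker, read 280.4 ± 49.6 CPM against a predicted 150.1 (edgeR adjusted p = 0.32). The replication count was 4 and the mitosis count 0 without OSM replicate 3 and EGF+TGFB replicate 2, and the medians were then 0.66 and 0.79. With single libraries left out the counts ranged from 4 to 15 for replication and from 0 to 10 for mitosis. Both were highest without EGF+TGFB replicate 3, and were 11 and 7 without OSM+TGFB replicate 3. The mitosis count was 0 with any 1 of 15 libraries left out. UHRF1 itself lost its call in 12 alternatives (adjusted p up to 0.073).

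Genes below the predicted level were fewer, 209 against 351. The 12 most negative included SLCO2A1, DOCK10, FBLN5, PAPSS2, IL7R, DENND3, LMCD1, USP54, PCDH7, GPC4 and STC1. The contrast on mean CPM without logs was also negative in 9 of them.

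SLCO2A1, the prostaglandin transporter (ENSG00000174640, chr3:133932701-134052184, minus strand), had the most negative value, -3.00 ± 0.38 (edgeR adjusted p = 6.9e-05). Its libraries read 4.20, 4.95 and 4.45 CPM with PBS, 0.825, 0.739 and 0.684 with EGF, 16.4, 11.2 and 15.9 with OSM, and 4.02, 3.5 and 2.51 with TGFB. EGF+OSM gave 20.8, 16.9 and 15.3 CPM, EGF+TGFB 6.58, 5.41 and 3.94, and OSM+TGFB 116, 95.9 and 109.8. All 3 ligands gave 164, 156 and 154 CPM, above every pair in every library and 0.126 times the predicted 1258. Each pair interaction was strongly positive without the other ligand (2.89, 3.27 and 3.33) and near 0 with it (-0.12, 0.27 and 0.33). The gene with the most negative 3-way value was thus highest in the group with all 3 ligands.

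FBLN5, fibulin-5 of elastic fibres (ENSG00000140092, chr14:91869411-91947987, minus strand), read 15.0, 14.9 and 14.2 CPM with PBS, 1.40, 1.38 and 1.1 with EGF, 2.19, 2.02 and 2.0 with OSM, and 59.5, 54.0 and 52.0 with TGFB. TGFB libraries were thus above PBS and those of EGF and OSM below it. EGF+OSM gave 1.54, 1.75 and 1.72 CPM, no lower than EGF alone. With TGFB present, EGF gave 11.8, 10.8 and 8.95 CPM, OSM 18.0, 18.5 and 16.7, and both together 7.17, 7.29 and 7.90. The last were below either pair in every library. The 3-way value was -2.06 ± 0.25 (edgeR adjusted p = 3.3e-05) from a predicted 31.0 CPM.

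Of 16 EGF family members and their receptors, the EGFR ligands HBEGF and TGFA were lower than predicted, beside 1.26% of all rows, and none was higher. HBEGF (heparin-binding EGF-like growth factor, ENSG00000113070, chr5:140332843-140346603, minus strand) read 19.3, 18.7 and 20.7 CPM with PBS, 30.1, 28.2 and 29.1 with EGF, 17.1, 20.6 and 19.7 with OSM, and 19.4, 20.0 and 23.7 with TGFB. EGF+TGFB stood out with 64.5, 77.4 and 63.1 CPM, beside 29.9, 28.7 and 28.2 for EGF+OSM and 21.6, 24.0 and 26.8 for OSM+TGFB. With all 3 ligands it returned to 26.2, 32.5 and 32.1 CPM, overlapping EGF+OSM. The interaction of EGF and TGFB was 1.13 without and -0.27 with OSM, and the 3-way value was -1.40 ± 0.21 (edgeR adjusted p = 0.00032).

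TGFA read 262 ± 14.1 CPM with all 3 ligands against a predicted 533 and 251 ± 13.7 with EGF+OSM. Its 3-way value was -1.02 ± 0.17 (edgeR adjusted p = 0.0012). Both sit on the list of ERK feedback and early response genes. There, 4 of 24 were lower (HBEGF, TGFA, DUSP5 and IER3), beside 1.26% of all rows. The ETS factor ETV5 was higher, at 44.1 ± 1.41 CPM against 16, beside 2.11% of all rows called higher. DUSP6, the phosphatase that reports ERK activity, read 66.6 ± 7.87 CPM against 45.8, with a 3-way value of 0.54 ± 0.35 (edgeR adjusted p = 0.50).

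SOCS3, the STAT3-induced inhibitor of gp130 signalling (ENSG00000184557, chr17:78356778-78360077, minus strand), followed OSM. It read 1.2, 1.83 and 1.44 CPM with PBS, 1.52, 1.02 and 1.32 with EGF, 2.87, 3.21 and 3.01 with TGFB, and 6.38, 7.32 and 5.35 with EGF+TGFB. OSM gave 169, 182 and 143 CPM, OSM+TGFB 159.8, 163 and 140.3, EGF+OSM 86.0, 82.2 and 90.4, and all 3 ligands 73.2, 82.7 and 85.1. The last overlapped EGF+OSM, as OSM+TGFB overlapped OSM. The 3-way value of -1.32 ± 0.32 (edgeR adjusted p = 0.019) comes with a positive EGF and TGFB interaction of 1.32 without OSM, at levels of at most 7.32 CPM, and one of -0.01 with it. On the scale without logs the contrast was 1.33 CPM. The call was lost without PBS replicate 2 (adjusted p = 0.077) and without EGF replicate 2 (0.055). In the STAT3 and acute phase list only SOCS3 and IL6ST were called of 26, both lower, beside a background of 1.26%.

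Inflammatory genes were counted in 3 lists, beside 2.11% of all rows called higher and 1.26% called lower. Of 20 cytokines and interleukin-1 family members, IL11 was higher and IL1A lower, and of 17 chemokines CXCL3 was lower. IL1A (interleukin-1 alpha) read 131 ± 17.5 CPM with all 3 ligands, in libraries that overlapped those of EGF+OSM (117 ± 9.82), against a predicted 317. Its 3-way value was -1.28 ± 0.30 (edgeR adjusted p = 0.020), with the call lost without OSM replicate 1 (0.052). Of 16 NF-kB factors and feedback genes, TNFAIP3 (A20, an inhibitor of NF-kB) and the adhesion molecule ICAM1 were lower. TNFAIP3 read 72.5 ± 5.27 CPM against 168. ICAM1 read 70.5 ± 10.1 CPM against 130.1 and lost its call in 15 alternatives (adjusted p up to 0.093).

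In the contractile cytoskeleton the calls were divided. PDLIM7, FLNA and ACTN1 were higher and TPM1 and SRF lower, of 21, beside 2.11% and 1.26% of all rows. TPM1 (tropomyosin) reached 428 ± 72.4 CPM with EGF+TGFB but 209 ± 8.16 with all 3 ligands, against a predicted 461. PDLIM7, a scaffold of actin filaments, read 315 ± 21.6 CPM with all 3 ligands and 329.7 ± 25.1 with EGF+TGFB, against 118.

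**Figure D4:**
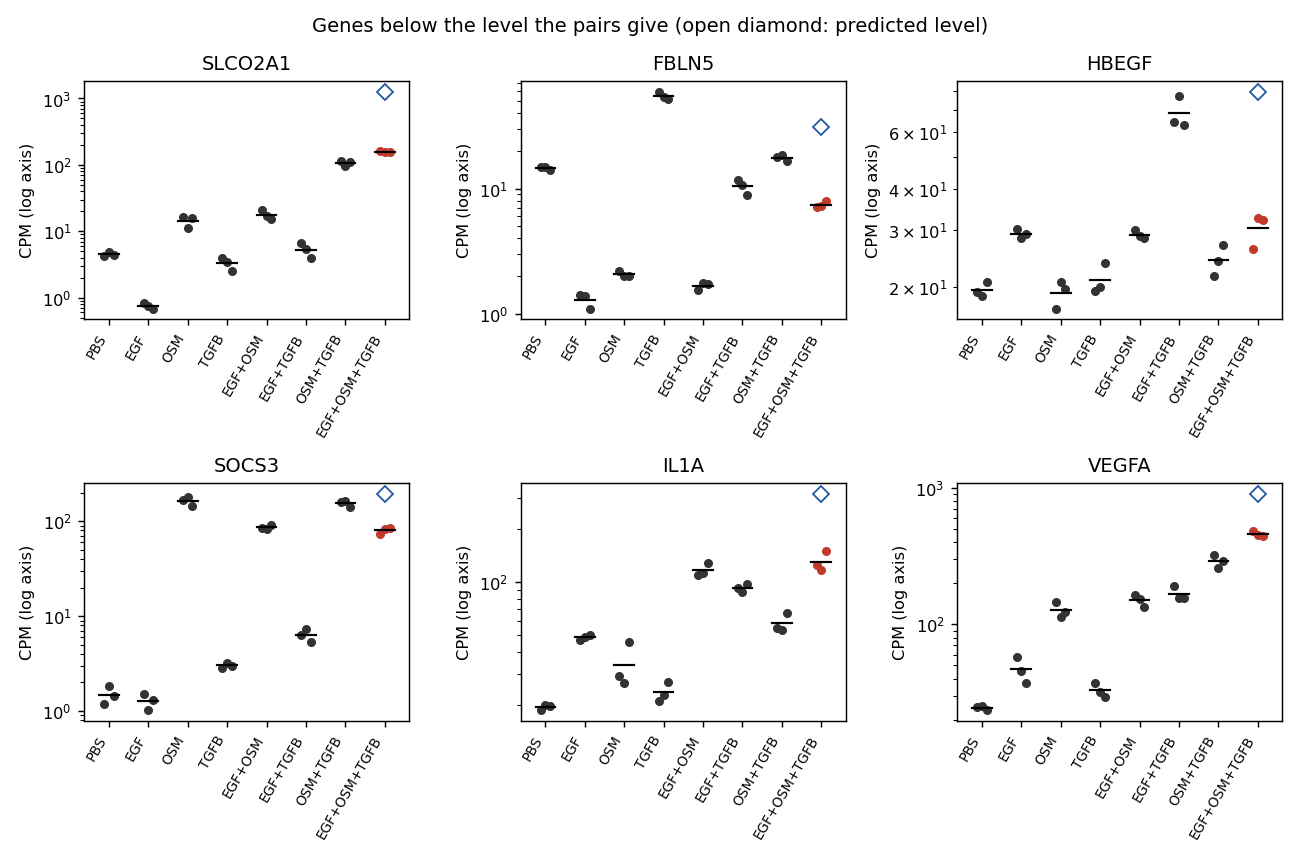
CPM in each library (points, log axis) with the group mean (bar) for SLCO2A1, FBLN5, HBEGF, SOCS3, IL1A and VEGFA. Red points are EGF+OSM+TGFB, and the open diamond, the predicted level, lies above them in all 6 genes. In SLCO2A1 and VEGFA the red points are nonetheless the highest of the 8 groups.

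Of the 5 receptor genes named at the outset, 2 were called, beside 3.37% of all rows. EGFR read 549.7 ± 31.9 CPM with all 3 ligands against 458, OSMR 745 ± 41.0 against 572, and TGFBR2 259.7 ± 16 against 306. None of these was called (edgeR adjusted p = 0.21, 0.15 and 0.39). TGFBR1 was higher, at 280.0 ± 14.5 CPM against 171 (3-way value 0.71 ± 0.13, adjusted p = 0.0021). IL6ST was lower, at 288 ± 7.34 CPM against 379.6 (-0.40 ± 0.10, adjusted p = 0.025), although this was its highest level. IL6ST lost its call in 7 alternatives (adjusted p up to 0.084).

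A 3-way value does not say whether the level with all 3 ligands lay outside that of the pairs. It lay above every pair in 373 rows (2.25%) and below every pair in 270 (1.63%), each of the 3 differences being called. Of the 373, 18 were also higher than predicted, beside 2.11% of all rows, and 33 were lower, beside 1.26%. Below every pair, 10 were higher than predicted and 3 lower, beside the same shares of all rows. Thus 496 of the 560 rows with a called 3-way value had a level that was not past every pair. The count above every pair was 212 without EGF+OSM+TGFB replicate 1.

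Of abundant genes with a called 3-way value and a level above every pair, PAPSS2, VEGFA, TGM2, LMCD1, ADAM19 and TUBB3 were farthest from the nearest pair. TGM2, the crosslinking enzyme transglutaminase 2 (ENSG00000198959, chr20:38127385-38166578, minus strand), was highest with all 3 ligands. It read 3.87, 4.69 and 4.18 CPM with PBS, 21.4, 17.9 and 14.7 with EGF, 72.9, 75.0 and 72.8 with OSM, and 213, 176 and 156 with TGFB. EGF+OSM gave 43.8, 46.5 and 24.9 CPM, EGF+TGFB 887, 803 and 694, and OSM+TGFB 1266, 1185 and 1408. All 3 ligands gave 2099.5, 2147 and 1815 CPM, above every other library. The 3-way value was 1.54 ± 0.37 (edgeR adjusted p = 0.024) from a predicted 693. The call was lost without PBS replicate 1, without EGF replicate 1 and with no filter on low counts (adjusted p 0.050 to 0.064).

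VEGFA, the vascular growth factor (ENSG00000112715, chr6:43770184-43786487, plus strand), was also highest with all 3 ligands but lay below prediction. It read 459 ± 19.8 CPM against a predicted 909.7, beside 289.9 ± 31.7 with OSM+TGFB, 167 ± 21.1 with EGF+TGFB and 149.6 ± 15.5 with EGF+OSM. The 3-way value was -0.99 ± 0.25 (edgeR adjusted p = 0.032), and its call was lost in 14 alternatives, 12 of them single libraries left out (adjusted p up to 0.070). PAPSS2, which makes the sulfate donor for proteoglycans, read 14.9 ± 1.03 CPM with all 3 ligands against at most 6.89 ± 0.691 with a pair, and a predicted 51.5. LMCD1, a LIM domain protein, read 49.4 ± 4.70 CPM against 149.8. ADAM19, a membrane metalloprotease, read 588 ± 14.5 CPM against 243, and the tubulin TUBB3 1083 ± 22.8 against 588, both above prediction.

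Below every pair, the 6 farthest were DKK1, METTL7A, FLVCR2, FGFR2, PAK6 and IQANK1. DKK1, a secreted WNT antagonist (ENSG00000107984, chr10:52314281-52318042, plus strand), read 82.6, 91.6 and 89.5 CPM with PBS and 166, 187 and 188 with TGFB. With OSM it read 6.66, 9.19 and 7.56 CPM, and with EGF 62.8, 66.6 and 73.3. Pairs gave 18.9, 18.7 and 23.6 CPM for EGF+OSM, 55.8, 58.7 and 69.2 for EGF+TGFB, and 13.8, 15.0 and 13.5 for OSM+TGFB. All 3 ligands gave 6.02, 7.32 and 5.99 CPM, below each pair and overlapping OSM alone. The 3-way value was -1.34 ± 0.23 (edgeR adjusted p = 0.0014). FGFR2, a fibroblast growth factor receptor, read 4.39 ± 0.339 CPM with all 3 ligands and 18.9 ± 0.815 with TGFB alone, and was above a predicted 1.89. PAK6, FLVCR2 and IQANK1 lost their calls in 14, 12 and 21 alternatives (adjusted p up to 0.087, 0.082 and 0.11).

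Of the 43 gene lists, 6 had no called member: interferon response (31 tested), cholesterol and fatty acid synthesis (26), ribosome biogenesis (27), Notch (16), leukocytes (4) and endothelium (6). Of all rows, 3.37% were called in either direction, so a list of this size may hold no call at that share. By edgeR at an unadjusted p under 0.05 these 6 lists held 3, 2, 8, 6, 1 and 0 members, beside 2720 of all 16611 rows. DESeq2 called 0, 1, 1, 3, 0 and 0. Ribosome biogenesis leaned positive, with 25 of 27 values above 0, beside 9169 of all 16611 rows, and a median of 0.23, without a call.

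**Figure D5:**
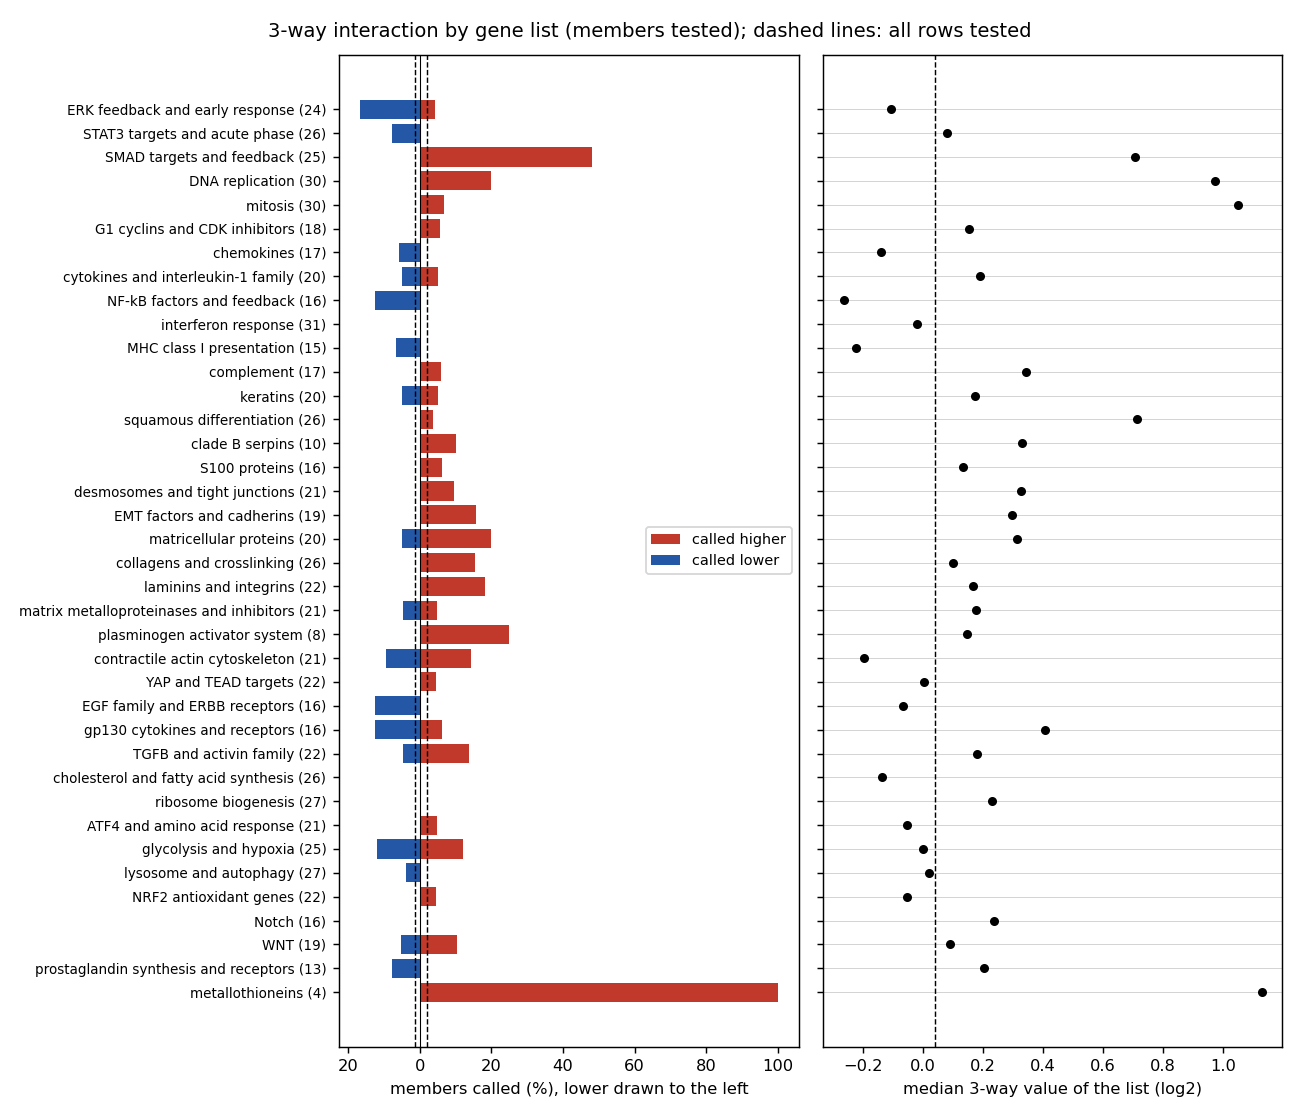
Share of each list's tested members called higher (red, to the right) or lower (blue, to the left) in the 3-way contrast, and the list's median 3-way value (log2) at right, with the number tested in brackets. The 5 lists of cell type markers are not drawn. Dashed lines give 2.11% higher, 1.26% lower and the median of 0.04 over all rows. SMAD targets and metallothioneins have the longest red bars, and the mitosis and DNA replication medians lie near 1.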

How the data were processed

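RNA of MCF10A cells was sequenced from polyA-selected libraries made with a stranded kit, per the labels' protocols. The authors deposited a table of expected counts per gene, already whole numbers; rounding changed none. Kallisto 0.46.2, Trim Galore 0.4.3, cutadapt 1.10, FastQC 0.11.5 and R 3.5.0, with the builds GRCh38.p5 and hg38, are named per the submitters' processing notes, without roles. How the estimated counts were summed per gene is not given in the sources used here.

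Libraries were grouped by their titles. edgeR 4.0.16 (R 4.3.3) fitted 1 mean per group to 27 libraries in 9 groups (18 residual degrees of freedom) with TMM scaling, filterByExpr and a robust quasi-likelihood test. Adjustment was by Benjamini-Hochberg over 16611 rows, and a call needed an adjusted p under 0.05. The biological coefficient of variation was 10.1%. Coordinates are those of GENCODE (GRCh38) by Ensembl ID, and promoters those of RefSeq. The scripts were tested on simulated data.

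Named genes are called protein-coding genes with at least 5 CPM on average, 10 counts per library in every group and 1 sign over the 3 replicate numbers: the 12 most positive, the 12 most negative, and the 6 farthest past every pair in each direction. Up to 3 called members per list and 12 preset genes were added. Other called members of a list are named to complete its count, after their values were seen. Members and lists were chosen with earlier results of these data known. Alternatives were other scalings, filters and thresholds, DESeq2 1.42.0, a block on the replicate number, the fit without the libraries taken before ligand, and libraries left out. For single genes the alternatives leave out the stricter thresholds. Group coefficients with few counts are less certain: 26 called rows had a group under 10 counts per library. Some genes that meet these rules are not reported here.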

Additional observations from a re-analysis of the deposited data

How the results depend on the processing

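The count of 560 rows with a called 3-way value (351 higher, 209 lower) was 552 to 604 with other scalings, a stricter filter or only 24 libraries in the fit, and 404 (215 higher, 189 lower) without a filter on low counts. At an adjusted p under 0.01 it was 212 (136 higher, 76 lower), with an absolute log2 value of at least 1 it was 207 (166 and 41), and with DESeq2 913 (529 and 384). The causes of these differences were not tested. Leaving out single libraries gave 402 (without EGF+TGFB replicate 1) to 728 (without EGF+TGFB replicate 3) rows, 263 to 483 higher and 111 to 245 lower, and kept 70.0% to 91.8% of the calls. Rows above every pair numbered 230 at an adjusted p under 0.01, 27 with an absolute log2 value of at least 1, and 212 to 381 with single libraries left out. Rows below every pair numbered 147, 50 and 244 to 357.

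Between pair interactions with and without the other ligand, leaving out OSM replicate 3 and EGF+TGFB replicate 2 gave r = 0.82 and a slope of 0.72 for EGF and OSM, a slope of 0.47 for EGF and TGFB, and r = 0.49 for OSM and TGFB. With single libraries left out, r was 0.82 to 0.85, 0.52 to 0.56 and 0.46 to 0.54 for the 3 pairs in that order, and the slope 0.66 to 0.72, 0.39 to 0.48 and 0.34 to 0.44.

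Of 91 named genes, 85 were called, and none of these changed sign in any alternative. At an adjusted p under 0.05, 55 were called in every alternative that gave a value. The stricter thresholds were not applied to single genes and are not part of that count. UHRF1 lost its call in 12 alternatives, KIF11 in 20, ANLN in 17, IL7R in 11 and STC1 in 4 (adjusted p up to 0.101). The 3-way value of SMAD7, never called, changed sign: it was 0.0109 without both libraries named above, and -0.105 to 0.0474 with single libraries left out.

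The labels give the same replicate numbers in every group but do not say that a number marks a shared culture or day. Same-numbered libraries deviated from their group means with r from -0.16 to 0.38 (median 0.16), over 0.1 in 64 of 84 pairs. For each of the 24 libraries, the mean correlation with libraries of other groups was highest for its own number. This is a hint from the data and not from the design. With a replicate block in the fit, 1190 rows were called (778 higher, 412 lower), and the calls above prediction were 14 SMAD targets, 24 replication genes and 16 mitosis genes.

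Depth limits the rows near the floor: 26 of the 560 called rows had a group with under 10 counts per library.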

Other observations

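Of 19 WNT genes tested, WNT10A and SFRP1 were called higher and DKK1 lower, beside 2.11% and 1.26% of all rows. SFRP1, a WNT antagonist, read 272 ± 14.5 CPM with all 3 ligands against a predicted 137 (3-way value 0.99 ± 0.11, edgeR adjusted p = 6.3e-06), with levels of 235 ± 4.56 to 455 ± 19.3 CPM over the 8 groups. SERPINB5, the epithelial serpin maspin, had a similar 3-way value: 1177 ± 65.1 CPM against a predicted 587 (1.00 ± 0.10, adjusted p = 6.2e-06), with its highest level, 2030.2 ± 42.2 CPM, with TGFB alone. Both calls held in every alternative that kept the threshold of an adjusted p under 0.05. The SFRP1 value of 0.99 is under the stricter limit of an absolute log2 value of at least 1.

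Among glycolysis and hypoxia genes, ENO2, NDRG1 and LDHA were higher than predicted and HK1, VEGFA and STC1 lower, of 25 tested. Of all rows, 2.11% were called higher and 1.26% lower. ENO2, the neuronal enolase, read 22.0 ± 3.51 CPM with all 3 ligands, above 10.8 ± 0.982 with OSM+TGFB and a predicted 5.63. PBS held 0.229 ± 0.0412 CPM, under 10 counts per library. STC1, the hormone stanniocalcin, read 179 ± 17.5 CPM with all 3 ligands and 188 ± 15.0 with EGF+OSM, against a predicted 505. Its call was lost with no filter on low counts and without PBS replicate 2, TGFB replicate 1 or EGF+TGFB replicate 1 (adjusted p 0.050 to 0.101).

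Involucrin (IVL), a marker of squamous differentiation, read 43.5 ± 4.50 CPM with all 3 ligands, against 5.06 ± 1.29 with EGF+OSM and a predicted 17.5. Its level with all 3 ligands was above that of OSM+TGFB (25.9 ± 1.5), and the interaction of EGF and OSM was 1.09 without and 2.41 with TGFB. KRT8, a keratin of simple epithelia, read 695 ± 32.8 CPM with all 3 ligands, its highest level, against a predicted 1293.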
